A study of Homo sapiens with 32 samples.

Results

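The Wnt and beta-catenin genes described here are 10 protein-coding genes, CTNNB1, APC, AXIN1, AXIN2, TCF7L2, LRP5, LRP6, FZD1, RNF43 and ZNRF3, out of 20037 in the RefSeq gene table of GRCh38.p14. They were chosen by name, with earlier results of these data known. A called N6-methyladenosine (m6A) peak was assigned to a gene when it overlapped the gene body by at least 1 bp. In total 565 of the 474004 peaks in the 16 deposited lists met this rule. In methylated RNA immunoprecipitation sequencing (MeRIP-seq), an m6A antibody captures fragmented RNA, and a peak is called where this immunoprecipitated (IP) fraction exceeds Input. It was applied to 786-O, an established clear cell renal cell carcinoma (ccRCC) line, and to RPTEC, a renal proximal tubule epithelial line immortalized with hTERT. Each cell line comprised the parental WT, the CRISPR/Cas9 clones SETD2KO-1 and SETD2KO-2, and SETD2KO-1R, in which SETD2KO-1 received a full-length FLAG-tagged SETD2 transgene and was again derived as a clone. Every line had 2 IP libraries. Per cell line, the 4 libraries of both knockout clones are called SETD2KO, and the 4 of WT plus the rescued clone are called SETD2-expressing. The comparisons ask whether m6A calls at Wnt genes differ between the tumor and the tubule line, and whether they differ with SETD2, the enzyme that trimethylates lysine 36 of histone H3.

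In canonical Wnt signaling, a Wnt ligand bridges a Frizzled receptor and the co-receptors LRP5 or LRP6. Without ligand, the destruction complex scaffolded by APC and AXIN1 directs beta-catenin, encoded by CTNNB1, to degradation, and with ligand beta-catenin accumulates and binds TCF factors such as TCF7L2 on target genes. AXIN2 is a target that feeds back on the complex, and the membrane E3 ligases RNF43 and ZNRF3 remove Frizzled receptors from the cell surface. The pathway guides kidney development and is drawn on again in tubule injury and in renal tumors.

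The lists held 25710 to 39670 peaks in the 8 libraries of 786-O and 19249 to 31207 in those of RPTEC, a mean difference of 6385 peaks (exact permutation test, two-sided, p = 0.00917). The deposited lists carry a different experiment name for each cell line, so cell line and experiment cannot be told apart. Without read counts the depth of a peak is unknown, and a gene without a peak may be silent, unmethylated or below the caller's threshold. In both cell lines all 8 libraries called a peak in PAX8 and PAX2, transcription factors of the kidney lineage, and in CDH2, a cadherin. No library did so in LRP2, AQP1 or SLC34A1, which define the differentiated proximal tubule, or in CA9 of clear cell carcinoma, 1 library did in CUBN and 3 in CDH16, while VIM had a peak in 14 libraries. SETD2 itself, the knocked-out gene, carried 8, 10, 7 and 9 peaks in the SETD2-expressing and 5, 10, 5 and 4 in the SETD2KO libraries of 786-O, and 7, 10, 11 and 10 against 6, 4, 4 and 5 in RPTEC. Peaks at an edited gene need not disappear, so this does not check the knockout.

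Called peaks reached some of the RefSeq start windows, which lie 250 bases before to 50 after an annotated start, and the sequence is shown for those that held GGAC, the core of the m6A consensus, on either strand. Of the 10 members, 7 had such windows, 11 in all, and called peaks overlapped 4 of these, in CTNNB1, APC, FZD1 and TCF7L2. Of the 35116 windows of this length in the table, 24.0% were overlapped by a peak of at least 1 library. The letters below run 5′ to 3′ along the gene, from 250 bases before to 30 bases after the start, and capitals mark GGAC on the gene strand. The TCF7L2 window, overlapped in 4 libraries, 2 of each cell line, held GGAC on neither strand and is not printed.
CTNNB1, chr3:41199255-41199534, plus strand: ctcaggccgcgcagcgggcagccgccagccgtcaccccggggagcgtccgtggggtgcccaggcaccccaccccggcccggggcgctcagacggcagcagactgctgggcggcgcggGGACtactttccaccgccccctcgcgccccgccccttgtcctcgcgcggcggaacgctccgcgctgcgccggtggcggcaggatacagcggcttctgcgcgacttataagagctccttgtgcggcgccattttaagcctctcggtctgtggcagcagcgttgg
APC, an internal start, chr5:112737635-112737914, plus strand: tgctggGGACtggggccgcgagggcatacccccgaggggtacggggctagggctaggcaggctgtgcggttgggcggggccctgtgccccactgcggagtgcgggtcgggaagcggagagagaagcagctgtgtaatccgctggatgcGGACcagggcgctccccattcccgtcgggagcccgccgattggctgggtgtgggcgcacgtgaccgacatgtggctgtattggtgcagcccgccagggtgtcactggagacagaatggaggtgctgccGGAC
FZD1, chr7:91264183-91264462, plus strand: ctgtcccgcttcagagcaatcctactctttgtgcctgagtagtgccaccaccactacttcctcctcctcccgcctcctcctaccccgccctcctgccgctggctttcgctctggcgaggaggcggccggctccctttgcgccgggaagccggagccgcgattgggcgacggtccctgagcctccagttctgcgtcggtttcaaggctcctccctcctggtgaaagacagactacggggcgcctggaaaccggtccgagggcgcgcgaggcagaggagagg
On the gene strand GGAC occurred 1 time in the CTNNB1 window, 3 times in the APC window, 1 of them after the start, and 0 times in the FZD1 window. On the opposite strand it occurred 2, 0 and 3 times. Of all windows, 66.3% held GGAC on the gene strand and 87.4% on either strand, and 18.9% held it on the gene strand after the start, the only part of the window that this start transcribes. The CTNNB1 window was overlapped in 5 libraries, 1 of 786-O and 4 of RPTEC, the APC window in 3 libraries, all of 786-O, and the FZD1 window in 6 libraries, 4 of 786-O and 2 of RPTEC.

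CTNNB1, which encodes beta-catenin itself, was among the members with the fewest calls. It carried 1, 1, 1, 0, 1, 1, 1 and 0 peaks in the 786-O libraries, in the order WT (replicates 1 and 2), SETD2KO-1, SETD2KO-2, then SETD2KO-1R, an order used for all members. In RPTEC it carried 1, 0, 2, 1, 1, 0, 0 and 1. Both cell lines averaged 0.750 peaks per library, and 11 of 16 libraries had any. Of its 7 regions (overlapping peaks of all libraries merged into 1 interval), 5 were called in 1 library. The region called most often, chr3:41199290-41199917, spans the start shown above and was called in 786-O WT replicate 1 and, in RPTEC, in WT replicate 1, SETD2KO-1 replicate 2, SETD2KO-2 replicate 1 and SETD2KO-1R replicate 2. Where it was called, its peaks ranked high, between the percentiles 84.9 and 97.1 of their lists by score. The library that called it was never more than 1 of the 2 of a line.

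The destruction-complex scaffolds APC and AXIN1 had a peak in every library. APC carried 4, 5, 5, 6, 4, 6, 7 and 6 peaks in 786-O and 5, 4, 5, 4, 5, 4, 5 and 6 in RPTEC, a narrow range in both. Nearly all of them lay at the 3′ end of the gene, since 92.6% of its 81 peaks had their midpoint in the last 10% of the gene body, against a median of 10.4% over the 9528 tested genes whose strand is in the start table. Regions chr5:112842510-112844306, 2.8 kb from the gene end, and chr5:112837376-112838274 were called in all 16 libraries, and chr5:112838433-112839063 between them in 15. Peaks in the first ranked between the percentiles 73.0 and 96.0. AXIN1 carried 6, 4, 7, 7, 7, 4, 10 and 7 peaks in 786-O and 5, 6, 2, 5, 4, 5, 6 and 7 in RPTEC, and the cell lines overlapped (6.50 ± 1.93 against 5.0 ± 1.51, SD, n = 8 libraries each; two-sided exact permutation test, p = 0.143, adjusted over all genes tested p = 0.409). Its calls were spread over 17 regions. Only chr16:346286-347485, 5.8 kb from the gene start, was called in all 16 libraries, followed by chr16:297142-298528 with 15 and a median percentile of 98.8.

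AXIN2, the feedback target, differed from AXIN1 in having 2 regions, of which chr17:65557931-65558980 was called in 13 libraries and the other in 1. All 8 RPTEC libraries carried exactly 1 peak. In 786-O the numbers were 1, 2, 0, 0, 1, 0, 2 and 1, so that both SETD2KO-1 libraries and 1 of the 2 SETD2KO-2 libraries called none while both WT and both SETD2KO-1R libraries called at least 1.

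The co-receptors had a peak in every library. LRP5 carried 5, 9, 8, 8, 9, 3, 13 and 7 peaks in 786-O and 7, 4, 1, 2, 5, 2, 10 and 3 in RPTEC, the widest spread of any member. Its 21 regions were the most of any member, and none was called in all libraries. The region called most often, chr11:68388951-68389930, was called in 14, all 8 of 786-O and 6 of RPTEC. LRP6 carried 4, 6, 2, 4, 4, 6, 5 and 4 peaks in 786-O and 6, 5, 6, 2, 6, 3, 6 and 4 in RPTEC, and 2 of its 12 regions, chr12:12120776-12121658 and chr12:12244388-12244908, were called in all 16 libraries with median percentiles of 80.3 and 90.2. FZD1, the Frizzled receptor of the set, carried 2, 2, 3, 2, 2, 1, 2 and 2 peaks and 2, 2, 1, 3, 3, 1, 2 and 2. All lay in 2 regions, chr7:91266244-91267214, called in all 16 libraries, and chr7:91264350-91265934 at the gene start, called in 13. Per 100 kb of gene body FZD1 carried 29.0 peaks per library, against 0.192 to 8.81 for the other members and a median of 4.94 over all genes tested, on a gene of 6.89 kb.

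The E3 ligases RNF43 and ZNRF3 act on the same receptors. RNF43 had no peak in any 786-O library and, in RPTEC, 2 peaks in WT replicate 1 and 0 in the other 7 libraries. It failed the filter of a peak in at least 4 libraries and was not tested. ZNRF3 carried 9, 7, 8, 6, 7, 6, 5 and 4 peaks in 786-O and 7, 9, 2, 4, 4, 3, 5 and 5 in RPTEC. Region chr22:29048951-29050887 was called in all 16 libraries. The transcription factor TCF7L2 carried 2, 4, 4, 4, 9, 5, 5 and 4 peaks in 786-O and 4, 7, 3, 4, 2, 2, 6 and 6 in RPTEC. Of its 20 regions 12 were called in 1 library, while chr10:113165290-113165867, 2.1 kb from the gene end, was called in all 16 and chr10:113044425-113045588, which also overlaps the small nucleolar RNA gene SNORA87, in 15.

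**Figure D1:**
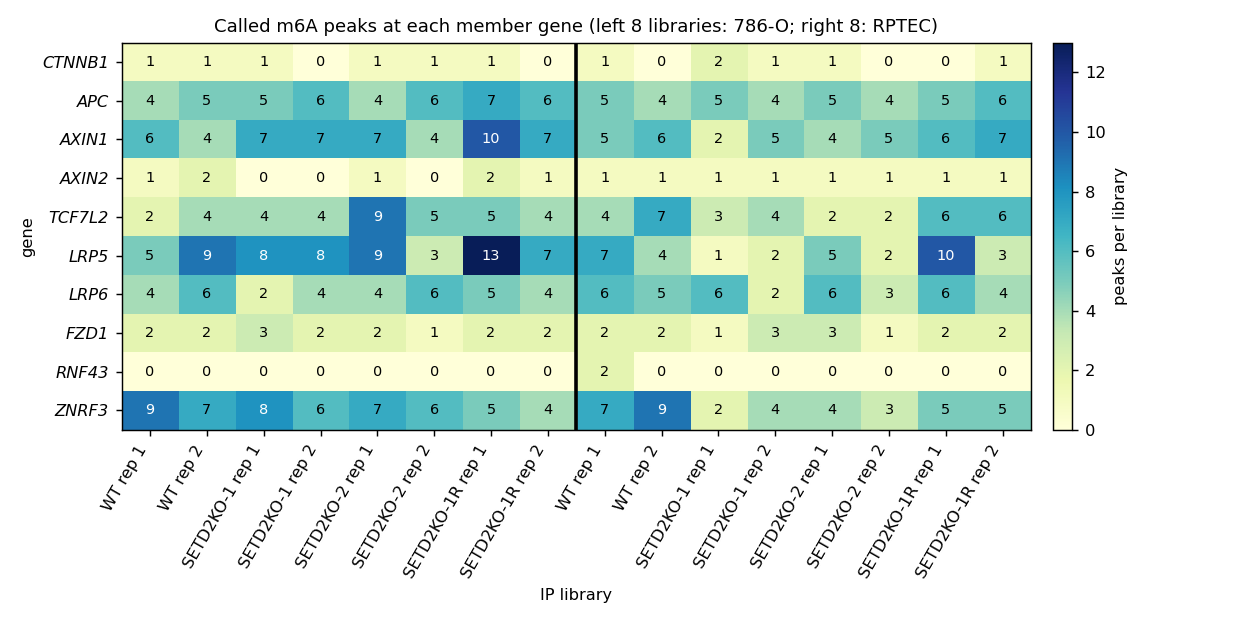
Number of called m6A peaks (color and figure in each cell) at each of the 10 genes (rows) in each of the 16 IP libraries (columns, 786-O left of the black line and RPTEC right). LRP5 has the darkest cell, with 13 peaks, followed by AXIN1 with up to 10 and ZNRF3 and TCF7L2 with up to 9, whereas RNF43 is at 0 in all libraries but RPTEC WT replicate 1.

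Across the 10 genes there were 107 regions. Of these, 8 (7.48%) were called in all 16 libraries and 42 (39.3%) in 1 library, and for the 82676 regions in protein-coding genes the shares were 4.86% and 35.6%. Regions called only in 786-O libraries, in any number, made up 32 (29.9%) and those called only in RPTEC libraries 21 (19.6%), near the 31.2% and 21.3% of all regions in protein-coding genes. No member region was called in all 8 libraries of a cell line and none of the other. Among all regions in protein-coding genes, 0.134% had this pattern for 786-O and 0.156% for RPTEC. Since the lists carry no strand, a peak cannot be given to 1 of 2 overlapping genes, and 5 of the 107 regions also overlapped another annotated gene. Exons and untranslated regions were not annotated here, so positions are given within the gene body only.

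**Figure D2:**
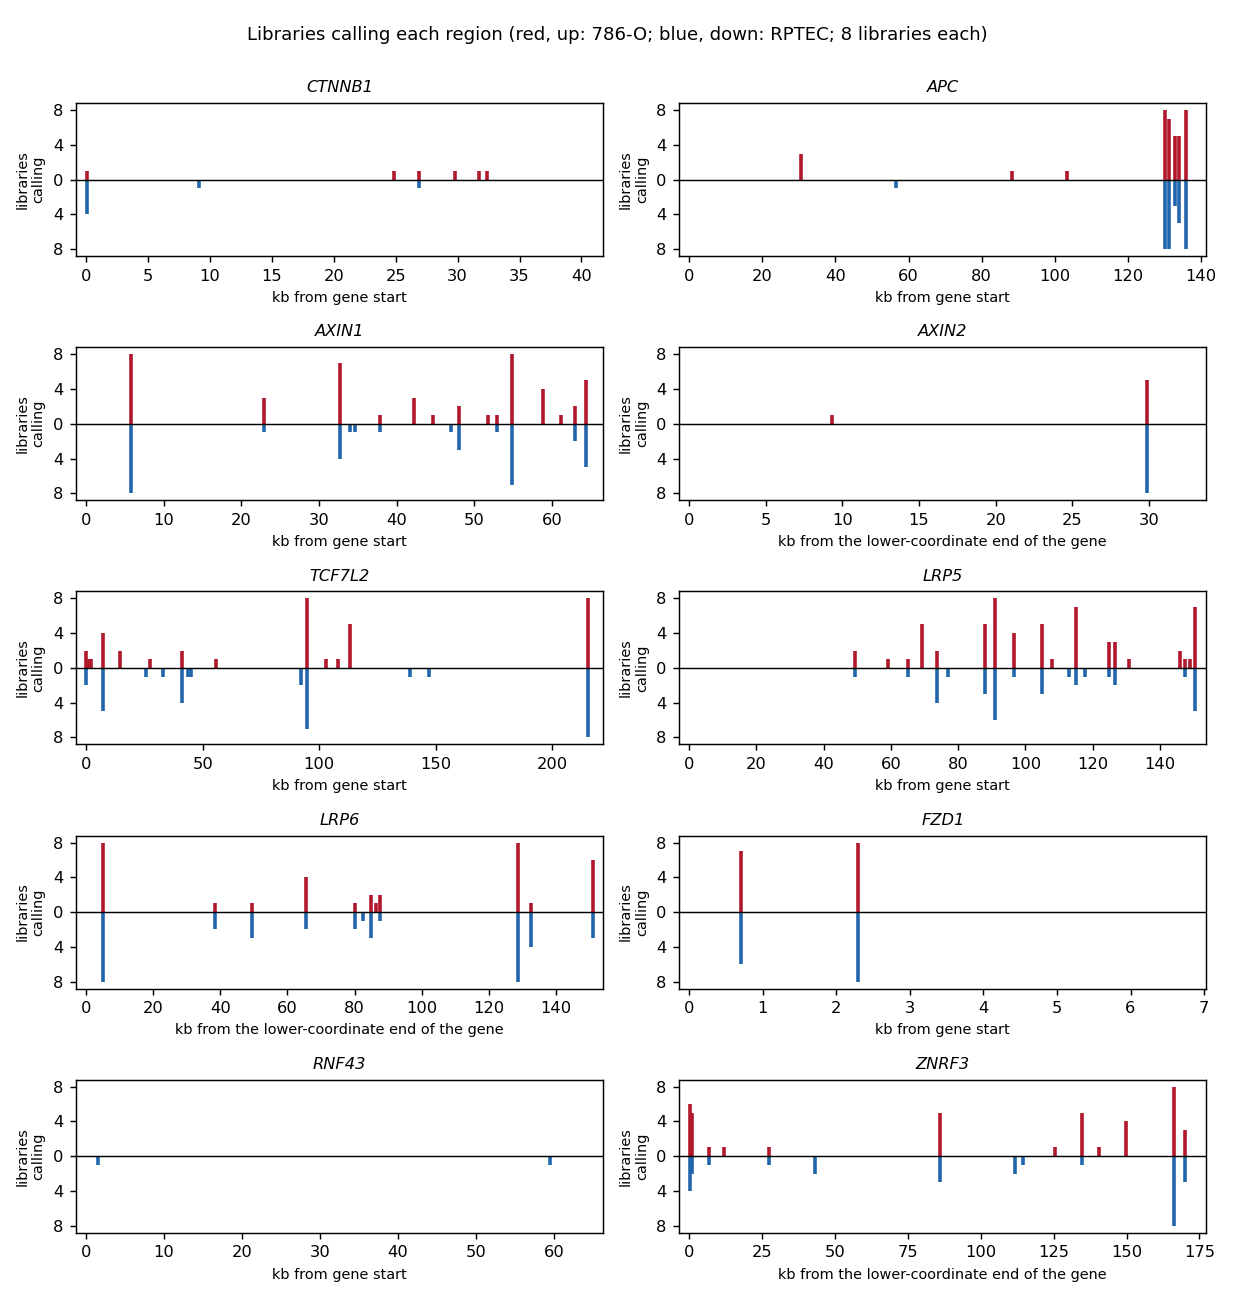
Each vertical line is a region, placed at its midpoint in kb along the gene body, and its height is the number of the 8 libraries of 786-O (red, upward) or RPTEC (blue, downward) that called it. The 5 regions of APC near 130 to 136 kb and the full-height lines of LRP6, FZD1, TCF7L2, AXIN1 and ZNRF3 were shared by both cell lines. AXIN2, LRP6 and ZNRF3 are drawn from the lower-coordinate end.

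Between 786-O and RPTEC no member passed the test. Each side was a single cell line, its 8 libraries being 2 replicates of 4 lines that share a parent. The p-values of this comparison, here and for the wider Wnt genes, therefore measure the spread between libraries, not between tumor and tubule lines at large. Of the 11574 protein-coding genes with a peak in at least 4 libraries, 786 (6.79%) differed in peaks per library at an adjusted p of at most 0.05 (two-sided exact permutation test, Benjamini-Hochberg over all genes tested), and of the 9 members tested 0 did so, with 1 below an unadjusted p of 0.05, as were 2424 of all 11574 genes. By limma, 1779 genes passed and again 0 members. Of the 786 genes, 65.3% were higher in 786-O, a share that fell to 46.0% when peaks were counted per 10000 peaks of the list and to 34.3% when every list was shortened to an equal number of peaks. The member with an unadjusted p under 0.05 was LRP5, with 7.75 ± 2.96 peaks in 786-O and 4.25 ± 3.01 in RPTEC (SD, n = 8 libraries each), a difference of 3.50 (exact permutation test, p = 0.0440, adjusted p = 0.218). Its libraries overlapped, with 3 to 13 peaks against 1 to 10. Over the 9 members the median difference was 0.38 peaks, and it was 0.38 over all genes tested. In lists of equal length the LRP5 difference was 1.62 peaks (exact permutation test, p = 0.279).

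The height of the calls gave a similar picture. For each gene the highest-scoring peak was expressed as its percentile in the list of the library, with 0 where no peak was called. By this measure 7.61% of genes differed between the cell lines, and 0 of 9 members. An unadjusted p under 0.05 was reached by 2733 of the 11574 genes and, of the members, by ZNRF3. ZNRF3 reached percentiles of 71.1, 64.6, 80.6, 81.6, 89.1, 70.6, 61.1 and 94.4 in 786-O and 69.5, 69.9, 71.5, 46.3, 51.6, 62.1, 68.7 and 60.6 in RPTEC. Most 786-O libraries thus lay above most RPTEC libraries, with overlap between 61.1 and 71.5, and the difference of 14.1 percentile points had an exact permutation p of 0.0182 and an adjusted p of 0.120. It was 12 points in lists of equal length and 27.3 in the upper 50% of each list (exact permutation tests, p = 0.226 and 0.0182). The genes whose peak numbers over the 16 libraries were most like those of LRP5 were HSPBP1, CNST and CCDC106 (Pearson r of 0.86, 0.85 and 0.85 across libraries that also differ in list length).

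Of 83 further genes of the Wnt pathway, 58 were tested, 2 were higher in 786-O and 6 higher in RPTEC (8 of 58 past the adjusted threshold, against the 6.79% of all genes), and the median difference was 0.31 peaks. Among the ligands, WNT7A had 3 to 15 peaks in the RPTEC libraries (7.12 ± 3.98, SD, n = 8) and none in any 786-O library, and WNT5B had 2 to 5 (3.25 ± 1.39, SD, n = 8) against none. Both had an adjusted exact permutation p of 0.00717, the smallest in the comparison. The receptor tyrosine kinase ROR2, which binds WNT5A outside the beta-catenin branch, showed the reverse, with 2 to 7 peaks in 786-O (4.38 ± 1.60, SD, n = 8) and none in RPTEC (adjusted exact permutation p = 0.00717). Peaks at DKK3, a secreted protein of the Dickkopf family, numbered 0 to 3 in 786-O and 3 to 8 in RPTEC, a difference of -4.12 (adjusted exact permutation p = 0.0189).

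Further genes higher in RPTEC were PYGO1, a co-activator of beta-catenin, with 0 to 2 against 2 to 6 peaks (exact permutation test, adjusted p = 0.0161), and PTK7, a pseudokinase co-receptor, with 0 to 1 against 1 to 3 (exact permutation test, adjusted p = 0.0189). The Wnt target SP5 was at 0 in all 786-O libraries and had 1 peak in 7 of 8 RPTEC libraries (exact permutation test, adjusted p = 0.0274); it lay outside the rule for named genes. In the upper 50% of each list DKK3, PYGO1, PTK7 and SP5 no longer passed, and in lists of equal length PTK7 and SP5 did not. TLE4, a co-repressor that TCF factors recruit, had 1 to 5 peaks in 786-O and 0 to 2 in RPTEC (exact permutation test, adjusted p = 0.0443). This call was lost when any of 12 libraries was left out and in lists of equal length, where the difference was 0.38 instead of 2.25. Of the 83 genes, 19 had no peak in any library, among them 6 of the 7 R-spondins and their LGR receptors, where LGR4 had a peak in all 16 libraries. Of all 20037 protein-coding genes, 13420 had a peak in at least 1 library, and classes of genes were not tested against each other. By percentile, 11 of the 58 genes differed, 4 higher in 786-O and 7 higher in RPTEC, against 7.61% of all genes. Among the Wnt targets, MYC was higher in 786-O by percentile (mean 89.6 against 63.1, exact permutation test, adjusted p = 0.0140). SP5 was higher in RPTEC (mean 40.6 against 0, exact permutation test, adjusted p = 0.0251). MYC too lay outside the rule for named genes. In bulk libraries of called peaks, a change in transcript level and a change in methylation of the transcript cannot be told apart.

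**Figure D3:**
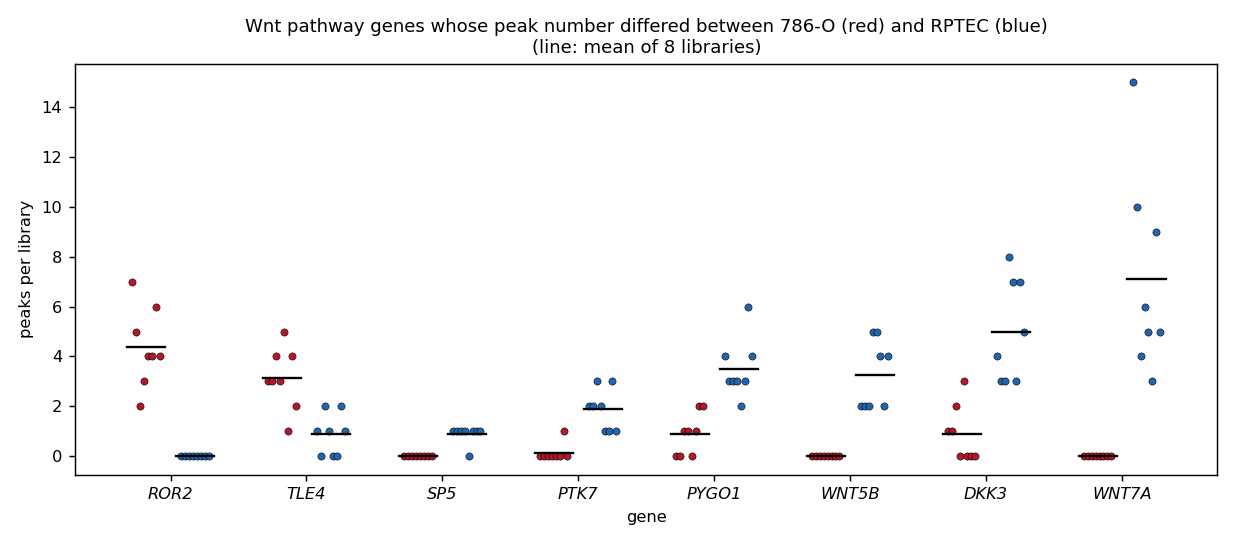
Peaks per library (points, 8 per cell line; black line, mean) at the 8 genes of the wider Wnt list that passed the adjusted threshold between 786-O (red) and RPTEC (blue). ROR2 has points above 0 only in 786-O, and WNT7A, WNT5B and SP5 only in RPTEC.

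Within each cell line SETD2KO libraries were compared with SETD2-expressing libraries. No gene passed adjustment in either cell line by the exact permutation test, whose smallest p is 0.0286 for 4 libraries against 4. An unadjusted p under 0.05 was reached by 301 genes in 786-O and 295 in RPTEC. Limma on log2(peaks + 1) called 117 and 114 genes, among them 0 of the 9 members. Values below are therefore descriptions, each set beside the share of all 11574 genes in which the 4 libraries of one side all lay beyond the 4 of the other. The units of the test are libraries, while it is clones that differ in SETD2 status, and whether the 2 replicates of a line came from separate cultures is not given, so p-values measure the spread between these libraries.

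In RPTEC the members carried fewer peaks in SETD2KO. Summed over the 10 genes there were 21 to 31 peaks per SETD2KO library and 35 to 41 per SETD2-expressing library, 101 against 154 in all, a ratio of 0.656. Over all genes tested the ratio was 0.883, and SETD2KO lists were also shorter (25184 ± 4698 against 27681 ± 3442 peaks, SD, n = 4 libraries each; exact permutation test, p = 0.429). Per 10000 peaks of the list the member sum was 8.49 to 11.8 in SETD2KO and 11.2 to 16.4 in SETD2-expressing libraries, which overlapped. Of the 9 members tested, 6 had a lower mean in SETD2KO, 1 a higher mean and 2 no difference. Over all genes tested 6113 were lower, 3231 higher and 2230 equal. The members had a median difference of -1.0 peaks against -0.25 over all genes. These differences were not scaled to the number of peaks that a gene carries. Over all genes tested the median gene averaged 1.62 peaks per library. CTNNB1 (0.750) and AXIN2 (0.938) averaged fewer, and every other member tested averaged more. The 2 medians therefore do not compare the size of the effect relative to the starting number.

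ZNRF3 was the member in which the RPTEC groups did not overlap. It had 7 and 9 peaks in WT, 5 and 5 in SETD2KO-1R, 2 and 4 in SETD2KO-1 and 4 and 3 in SETD2KO-2, so that every SETD2KO library lay below every SETD2-expressing one. Such a pattern was found for 1.49% of all genes in this direction and for 1.06% in the other. The difference was -3.25 peaks (6.50 ± 1.91 against 3.25 ± 0.957, SD, n = 4 libraries each; exact permutation test, p = 0.0286, adjusted p = 1.00). It was -2.25 in lists of equal length, -1.50 in the upper 50% of each list and -1.14 per 10000 peaks of the list (exact permutation tests, p = 0.0571, 0.0857 and 0.0286). The shared region chr22:29048951-29050887 was called in all RPTEC libraries of both groups. In 786-O the same gene had 6 to 8 peaks in SETD2KO and 4 to 9 in SETD2-expressing libraries.

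TCF7L2 showed the largest difference among the members between the cell lines in the SETD2 effect. In RPTEC its 3, 4, 2 and 2 peaks in SETD2KO lay at or below the 4, 7, 6 and 6 of the SETD2-expressing libraries (2.75 ± 0.957 against 5.75 ± 1.26, SD, n = 4; exact permutation test, p = 0.0571, adjusted p = 1.00). In 786-O the means went the other way, 5.50 ± 2.38 against 3.75 ± 1.26 (SD, n = 4), and the highest value was the 9 peaks of SETD2KO-2 replicate 1. The SETD2KO effect in 786-O minus that in RPTEC was 4.75 peaks (exact permutation test over 4900 arrangements, p = 0.0147, adjusted p = 1.00). For this difference of effects 0 of the 11574 genes passed adjustment and 485 had an unadjusted p under 0.05. It was 3.58 without 786-O SETD2KO-2 replicate 1 and 1.75 in the upper 50% of each list (exact permutation tests, p = 0.0286 and 0.0678).

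A single member region separated the RPTEC groups fully. It lies in TCF7L2, chr10:112991136-112991652, 41.1 kb from the gene start, and was called in both WT and both SETD2KO-1R libraries of RPTEC and in no SETD2KO library. In 786-O it was called in both SETD2KO-2 libraries and no other. No member region had this RPTEC pattern when a library's peaks had to cover at least 50% of the region, or in the upper 50% of each list. Of the regions in protein-coding genes, 0.149% had this pattern in RPTEC and 0.143% the reverse. No member region had either pattern in 786-O, where 0.221% of regions were called in SETD2KO alone and 0.122% in SETD2-expressing libraries alone.

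LRP5 and AXIN1 were also lower in the RPTEC SETD2KO libraries, with overlap. LRP5 had 1, 2, 5 and 2 peaks in SETD2KO against 7, 4, 10 and 3 (exact permutation test, p = 0.143, adjusted p = 1.00). Its highest peak ranked at the percentiles 17.0 and 46.3 in SETD2KO-1 and at 90.4 and 91.7 in SETD2KO-2, the latter within the 79.6 to 92.0 of the SETD2-expressing libraries, so the clones differed from each other (SETD2KO minus SETD2-expressing, -27.0 percentile points; exact permutation test, p = 0.257, adjusted p = 0.997; -12.3 without SETD2KO-1 replicate 1). AXIN1 had 2, 5, 4 and 5 peaks against 5, 6, 6 and 7 (exact permutation test, p = 0.0857, adjusted p = 1.00). CTNNB1, APC, LRP6 and FZD1 overlapped widely, and FZD1 averaged 2.00 peaks in all 4 groups.

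**Figure D4:**
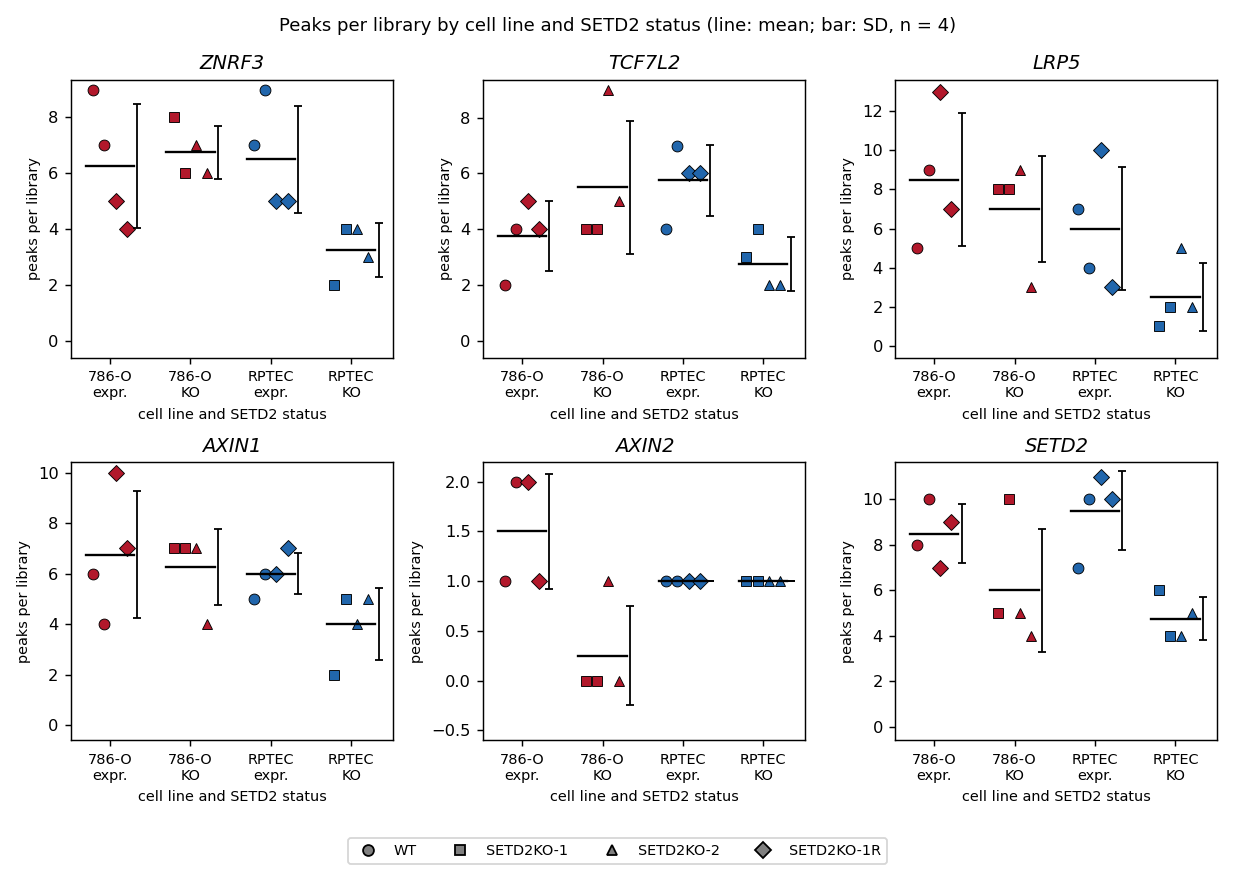
Peaks per library (points; shape gives the line, red 786-O, blue RPTEC) at 5 members and at SETD2, with the mean and SD of 4 libraries per group. In RPTEC the SETD2KO points of ZNRF3 and SETD2 lie below all SETD2-expressing points, and in 786-O AXIN2 is at 0 in 3 of 4 SETD2KO libraries.

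In 786-O the sum over the members was 32 to 44 peaks in SETD2KO and 34 to 50 in SETD2-expressing libraries, a ratio of 0.950 of the totals against 1.06 over all genes tested. Per 10000 peaks of the list it was 10.4 to 11.6 against 10.8 to 15.6, which overlapped. By peaks, 5 of the 9 members tested were lower in SETD2KO, 2 higher and 2 equal (median -0.25, against 0.00 over all genes). By percentile of the highest peak, 7 were lower and 2 higher (median -6.24), against 5505 and 5691 of all genes (median 0). In RPTEC the percentile was also lower in 7 and higher in 2 (median -3.49), against 6551 and 4645 of all genes (median -1.70). The highest AXIN2 peak ranked at the percentiles 64.7 and 66.9 in WT and 55.3 and 44.8 in SETD2KO-1R. SETD2KO-1 called no peak in either library, and SETD2KO-2 had 1 at the percentile 20.6 in replicate 1 and none in replicate 2. The groups did not overlap, with a difference of -52.8 percentile points (exact permutation test, p = 0.0286, adjusted p = 0.568), a pattern shared by 2.22% of all genes. In the upper 50% of each list it was -18.5 (exact permutation test, p = 0.143). In number of peaks the difference was -1.25 (exact permutation test, p = 0.0857, adjusted p = 1.00) and the groups met at 1 peak. In RPTEC the percentiles were 30.8, 23.7, 31.4 and 37.8 in SETD2KO and overlapped the 65.0, 24.8, 34.3 and 60.6 of the other group (difference -15.3; exact permutation test, p = 0.257, adjusted p = 0.997). With each RPTEC library left out in turn, this difference ran from -22.4 (without WT replicate 2) to -8.99 (without WT replicate 1). The SETD2KO effect on the number of AXIN2 peaks in 786-O minus that in RPTEC was -1.25 (exact permutation test, p = 0.0857, adjusted p = 1.00).

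AXIN1 moved the other way by this measure, with percentiles of 99, 99.1, 99.5 and 99.5 in the SETD2KO libraries of 786-O and 98.6, 96.8, 98.8 and 75.8 in the SETD2-expressing ones, a difference of 6.77 (exact permutation test, p = 0.0286, adjusted p = 0.568). It rested on SETD2KO-1R replicate 2, and was 1.21 without it. The share of all genes with SETD2KO above SETD2-expressing libraries was 2.81%. In RPTEC, where no member separated the groups by percentile, 2.09% of genes were higher and 2.20% lower in SETD2KO.

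**Figure D5:**
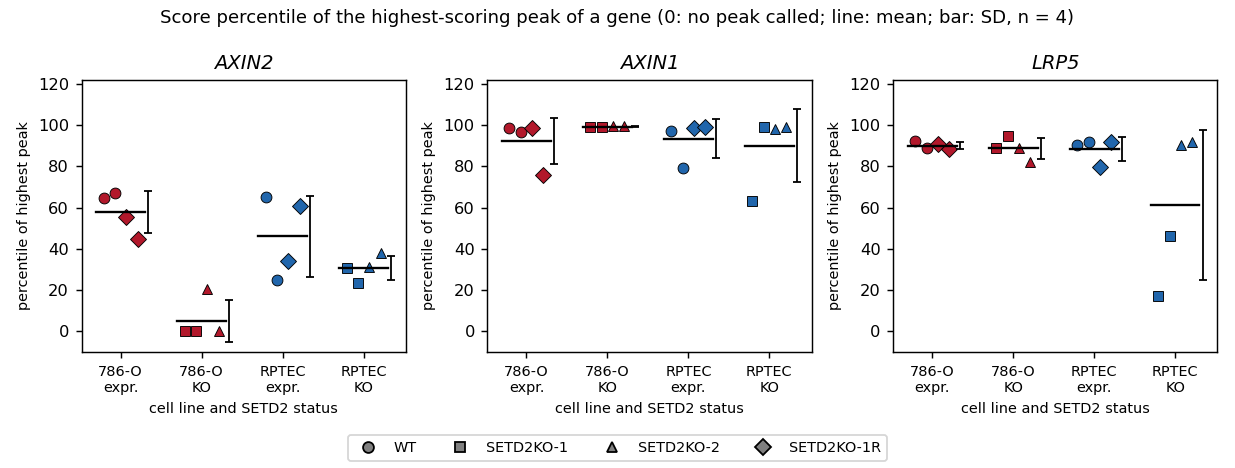
Percentile by score of the highest-scoring peak at AXIN2, AXIN1 and LRP5 in each library (points as shapes by line, 0 where no peak was called), with the mean and SD of 4 libraries per group. AXIN2 in 786-O SETD2KO lies between 0 and 20.6 and below all 4 SETD2-expressing libraries, and LRP5 in RPTEC SETD2KO is split by clone.

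Of the 58 wider Wnt genes tested, 0 passed the adjusted threshold for SETD2 status in either cell line by the exact permutation test. None of the 11574 genes did, as the smallest possible p of 0.0286 was too large after adjustment. This 0 is therefore no result about the Wnt genes. By peaks per library 4 of these 58 genes had groups that did not overlap, and by percentile 3 in 786-O and 1 in RPTEC. In 786-O, WNT2B, a canonical ligand, had 5, 4, 4 and 5 peaks in SETD2KO and 0, 3, 2 and 1 in SETD2-expressing libraries, and RYK, a Wnt co-receptor, had 2 in each SETD2KO library and 0, 1, 1 and 0 in the others. Over all genes 1.63% had this pattern. WLS, the carrier that secretes Wnt proteins, had no peak in any SETD2KO library and 2, 1, 1 and 1 in the SETD2-expressing ones, a pattern of 0.968% of genes. Each of these 3 had an unadjusted exact permutation p of 0.0286 and an adjusted p of 1.00, while limma called WLS (adjusted p = 0.0152). The highest WLS peak ranked at the percentiles 19.4 and 23.6 in 786-O WT and at 10.5 and 30.4 in 786-O SETD2KO-1R. The limma call thus rests on few, low-ranking peaks set against libraries without any. In RPTEC, WLS went the other way, with 1, 3, 1 and 1 peaks in SETD2KO against 0, 0, 2 and 1 (exact permutation test, p = 0.514), and RYK had 1, 4, 2 and 1 against 0, 0, 0 and 2 (exact permutation test, p = 0.200). By percentile, WLS did not overlap in 786-O, which follows from its counts because a library without a peak is set to 0. WNT2B did not overlap there either. The same held there for TNKS, a tankyrase that marks AXIN for degradation, with 65.4 to 89.9 in SETD2KO against 42.2 to 54.1, and in RPTEC for RYK, with 17.0 to 79.5 against 0 to 16.1. Over all genes 2.81% were higher and 2.22% lower in SETD2KO by percentile without overlap in 786-O, and 2.09% higher in RPTEC. TNKS lay outside the rule for named genes and was chosen after its values were seen. In RPTEC, WNT2B had 4, 3, 2 and 3 peaks in SETD2KO against 1, 1, 2 and 0, and the groups met at 2 (exact permutation test, p = 0.0571). CREBBP, a histone acetyltransferase and co-activator of beta-catenin, had 4, 6, 5 and 4 peaks in the SETD2KO libraries of RPTEC against 8, 7, 10 and 7 (exact permutation test, p = 0.0286, adjusted p = 1.00), a pattern of 1.49% of all genes. In 786-O it went the other way, with 9, 7, 8 and 9 against 8, 6, 7 and 5, and the difference of the effects had an exact permutation p of 0.00286 (adjusted p = 1.00). SETD2 itself had the same pattern in RPTEC, with a difference of -4.75 peaks (exact permutation test, p = 0.0286, adjusted p = 1.00), and -2.50 in 786-O (exact permutation test, p = 0.200, adjusted p = 1.00). With each library left out in turn, the 786-O difference ran from -3.83 (without SETD2KO-1 replicate 2) to -1.83 (without SETD2KO-2 replicate 2).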

How the data were processed

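MeRIP-seq was performed on 16 IP and 16 Input samples. The Input samples have no list of their own here. Per the labels and methods, the authors aligned reads with STAR to hg38, counted them with HTSeq, applied a spike-in scaling from E. coli RNA, and ran MACS2 on each IP library with its Input as control. The deposited score per peak is a whole number of unstated scale and ranked peaks within a list only; the deposited summit offset gave the summit position.

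Peaks per library and the percentile of the highest-scoring peak were computed for each protein-coding gene with a peak in at least 4 libraries. Groups came from the titles. Exact two-sided permutation tests over libraries were adjusted by Benjamini-Hochberg over 11574 genes. Steps were tested on simulated data. The members and gene lists were chosen with earlier results of these data known. Named genes were the members with their most often called and group-separating regions, SETD2, up to 5 wider Wnt genes per direction past the threshold between cell lines and up to 3 per direction not overlapping by SETD2 status, and the 3 genes most like the member with the largest cell-line difference. The authors' DESeq2 analysis needs read counts and was not repeated. Sequences are from RefSeq, GRCh38.p14. Python 3.11.15, numpy 2.4.6, pandas 2.3.3, matplotlib 3.10.9, R 4.3.3 and limma 3.58.1 were used.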

Additional observations from a re-analysis of the deposited data

Results flagged for a closer look

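In 80 groups of 4 libraries (10 genes, 2 measures, 4 groups), a single library stood apart from the other 3 in 16, by Dixon's ratio of its gap to the range of the group at the 95% critical value. Chance flags about 1 in 20 groups, and 3 equal counts with 1 other always qualify.

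For CTNNB1 in 786-O, SETD2KO-1 replicate 2 and SETD2KO-1R replicate 2 had 0 peaks where the other 3 libraries of their group had 1, and SETD2KO-1 replicate 1 reached the percentile 93.1 against 0 to 15.7. For AXIN1 in 786-O, SETD2KO-2 replicate 2 had 4 peaks against 7, and SETD2KO-1R replicate 2 reached the percentile 75.8 against 96.8 to 98.8. In RPTEC, AXIN1 reached the percentile 63.4 in SETD2KO-1 replicate 1 against 98.1 to 99.3, and 79.2 in WT replicate 2 against 97.0 to 99. AXIN2 in the 786-O SETD2KO group had 1 peak, at the percentile 20.6, in SETD2KO-2 replicate 1 and 0 in the other 3.

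LRP5 had 3 peaks in 786-O SETD2KO-2 replicate 2 against 8 to 9, and the percentile 79.6 in RPTEC SETD2KO-1R replicate 1 against 90.2 to 92.0. LRP6 in RPTEC reached 73.3 in SETD2KO-1 replicate 2 against 93.9 to 96.0, and 86.5 in SETD2KO-1R replicate 1 against 94.6 to 95.8. RNF43 had 2 peaks, at the percentile 35.9, in RPTEC WT replicate 1 and 0 in the other 3 SETD2-expressing libraries. ZNRF3 reached 60.6 in RPTEC SETD2KO-1R replicate 2 against 68.7 to 69.9. For a different SETD2KO effect in the 2 cell lines, 0 of the 11574 genes tested by peaks per library passed the adjusted threshold in the exact permutation test, the 9 members included, and 485 had an unadjusted p under 0.05.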

How the results depend on the processing

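No alternative brought a member past the adjusted threshold in any comparison. Between 786-O and RPTEC, the number of genes that passed by peaks per library moved from 786 to 311 in the upper 50% of each list, 440 in lists of equal length and 1779 by limma, and ranged from 707 to 982 with each library left out in turn. By percentile it moved from 881 to 442 and 550 under the first 2 of these, and ranged from 688 to 944. Of the wider genes, DKK3, PYGO1, PTK7, SP5 and TLE4 lost the call in the upper 50%, and PTK7, SP5 and TLE4 in lists of equal length. For SETD2 status limma called 117 genes in 786-O and 114 in RPTEC. The exact tests called 0 in every alternative run, but with 4 libraries against 4 no p lies below 0.0286 before adjustment over all genes, and against WT alone none below 0.0667, so this 0 says nothing about stability. The number of member regions called in all 16 libraries was 3, not 8, when peaks had to cover at least 50% of a region, and 3 in the upper 50%; leaving out a library gave 8 to 9.

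The replicate numbers did not pair the libraries: correlations of same-numbered deviations between lines ran from -0.14 to 0.15, with 2 of 12 over 0.1. With the replicate block 697 genes passed between cell lines by peaks per library and 805 by percentile. For SETD2 status the block allows no p below 0.0556, so no gene could pass. Peaks per 10000 of the list, chosen after seeing the data, gave 1021. Since the depth of each library is unknown, an uncalled peak cannot be set against coverage.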
